A study of Mus musculus with 4 samples.

Results

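The genes described here are *Nlrc5* and 9 genes of the MHC class I presentation pathway, *H2-K1*, *H2-D1*, *H2-Q4*, *H2-T23*, *B2m*, *Tap1*, *Tap2*, *Tapbp* and *Erap1*. They were taken by gene symbol from a table of liver gene expression and make up 10 of its 35739 genes. *Nlrc5* was among the genes that the study followed up. The study reported it as higher in livers of *Usp21* knockout (KO) mice by RNA-seq and by RT-qPCR. The question here was whether genes of the pathway that the NLRC5 protein controls followed *Nlrc5*, gene by gene. RNA-seq was done on livers of WT mice (replicates 2 and 3) and of *Usp21* KO mice (replicates 1 and 3), with 1 library per mouse and 2 libraries per genotype. *Usp21* encodes a ubiquitin-specific protease. In the KO mice, exons 3 and 4 were removed by Cre-loxP recombination in all tissues, so that the mice are constitutive and not liver-specific knockouts. The KO and WT mice were littermates of 10 to 11 weeks from matings of B6 mice with mice whose background was a mix of B6 and the strain of the ES cells, kept on a normal diet and given no treatment.

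MHC class I molecules present peptides from inside the cell to CD8+ T cells and are carried by nearly all nucleated cells. A class I molecule is a heavy chain paired with beta-2 microglobulin (*B2m*) and a peptide. The proteasome cuts the peptide, the TAP1 and TAP2 transporter carries it into the endoplasmic reticulum, ERAP1 trims its end, and tapasin (*Tapbp*) holds the empty heavy chain next to the transporter until the peptide is bound. NLRC5 is a protein of the NLR family that enters the nucleus and activates class I genes. It binds no DNA itself and acts through RFX, CREB/ATF and NF-Y factors bound to a promoter element called the SXY module, and interferon-gamma induces it. Heavy chain genes and *B2m* are the classical targets of NLRC5, and *Tap1* is also activated by it.

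In the GENCODE M21 annotation (build GRCm38), *Nlrc5* (ENSMUSG00000074151) covers 94434356 to 94527272 of chromosome 8. Of the 10 genes, 7 lie in 2.12 Mb of chromosome 17. In the order of their positions these are *Tapbp* (33915899 to 33929292), *H2-K1* (33996017 to 34000347), *Tap1* (34187553 to 34197225), *Tap2* (34203527 to 34216321), *H2-D1* (35262730 to 35267499), *H2-Q4* (35379617 to 35385290) and *H2-T23* (36029773 to 36032855). *B2m* is on chromosome 2 (122147686 to 122153083) and *Erap1* on chromosome 13 (74639568 to 74693201).

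Promoter sequences (250 bases before to 50 after the gene's start, from RefSeq, build GRCm38.p6) were given for 8 of the 10 genes, and none is shown for *Nlrc5* and *Tap2*. The SXY module holds a site for CREB/ATF factors (the X2 box, like TGACG) followed by a CCAAT site for NF-Y, which reads ATTGG on the other strand (the Y box). To show where NLRC5 is known to act, the promoters with TGAC followed by ATTGG 20 to 30 bases further on, counted between motif starts on either strand, are printed here with these motifs in capitals. The sequences run 5′ to 3′ on the strand of the gene and lie at chr17:34000344-34000403 (*H2-K1*, reverse strand), chr17:35262978-35263037 (*H2-D1*), chr17:35379498-35379557 (*H2-Q4*) and chr2:122147594-122147653 (*B2m*).
H2-K1: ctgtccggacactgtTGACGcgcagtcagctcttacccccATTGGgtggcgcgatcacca
H2-D1: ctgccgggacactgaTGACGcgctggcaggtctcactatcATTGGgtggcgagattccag
H2-Q4: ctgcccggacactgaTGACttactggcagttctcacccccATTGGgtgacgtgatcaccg
B2m: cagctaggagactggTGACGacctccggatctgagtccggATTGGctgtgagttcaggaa

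The *H2-D1* window lies inside the gene as placed in GENCODE M21 (start at 35262730), since the RefSeq start used for its promoter lies further along. In all 4 promoters the motif starts were 25 bases apart. The windows of the 3 heavy chain genes matched each other at 45 to 48 of their 60 bases, and each matched the *B2m* window at 25 or 26. TGACG followed by ATTGG at this spacing was present in 3 of the 8 promoters (*H2-K1*, *H2-D1* and *B2m*) and in 0.435% of all 32851 promoters. With TGAC as the first motif, *H2-Q4* was added, which gave 4 of 8 compared with 2.37% of all promoters. The single motifs are common. TGACG on either strand was found in 5 of 8 and in 20.8% of all promoters, and ATTGG in 7 of 8 and in 37.4%. GGGGATTCC, a sequence of the NF-kappaB type, was found in *H2-K1* and *H2-D1* and in 0.250% of all promoters. GAAANNGAA, a core of interferon response elements, was found in *H2-T23*, *B2m* and *Erap1* and in 8.56% of all promoters. A match is a match of letters in these windows, not proof of a bound factor.

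The deleted gene was checked first. *Usp21* was at 4.07 and 6.29 TPM in the WT livers, against 1.64 and 2.93 TPM in the KO livers, with a log2 fold change of -0.92 (SE 0.33, adjusted p = 0.464 in limma with Benjamini-Hochberg adjustment). The KO libraries were below the WT libraries, and reads outside the deleted exons can still give a value. TPM is a level, scaled to nearly the same total in each library and corrected for transcript length, so genes can be compared with each other. It does not keep the number of reads. Between 12876 and 13620 genes were above 0 TPM in a library. Hepatocyte marker genes made up 48684 to 71408 TPM of each library and lymphocyte markers 4.24 to 4.58 TPM, with 10 of 12 under 1 TPM in every library.

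Genes were tested with limma on log2(TPM + 1), and all log2 fold changes are KO minus WT on that scale, which understates changes of genes near or below 1 TPM. A total of 9581 genes had a mean of at least 1 TPM and were tested together. Of the 10 genes described here, 9 were among them. *Nlrc5* had a mean of 0.931 TPM and was taken from the same fit without this filter. An adjusted p under 0.05 was reached by 0.0835% of all tested genes (8 genes) and by 0 of the 10 genes described here. An unadjusted p under 0.05 was reached by 10.5% of all tested genes and again by 0 of the 10. None of the 10 differed by 2-fold or more on this scale. A single gene cannot be tested further with 2 libraries per genotype, since an exact permutation test cannot go below p = 0.333 (two-sided). The levels of all 10 genes in each library are plotted next.

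**Figure D1:**
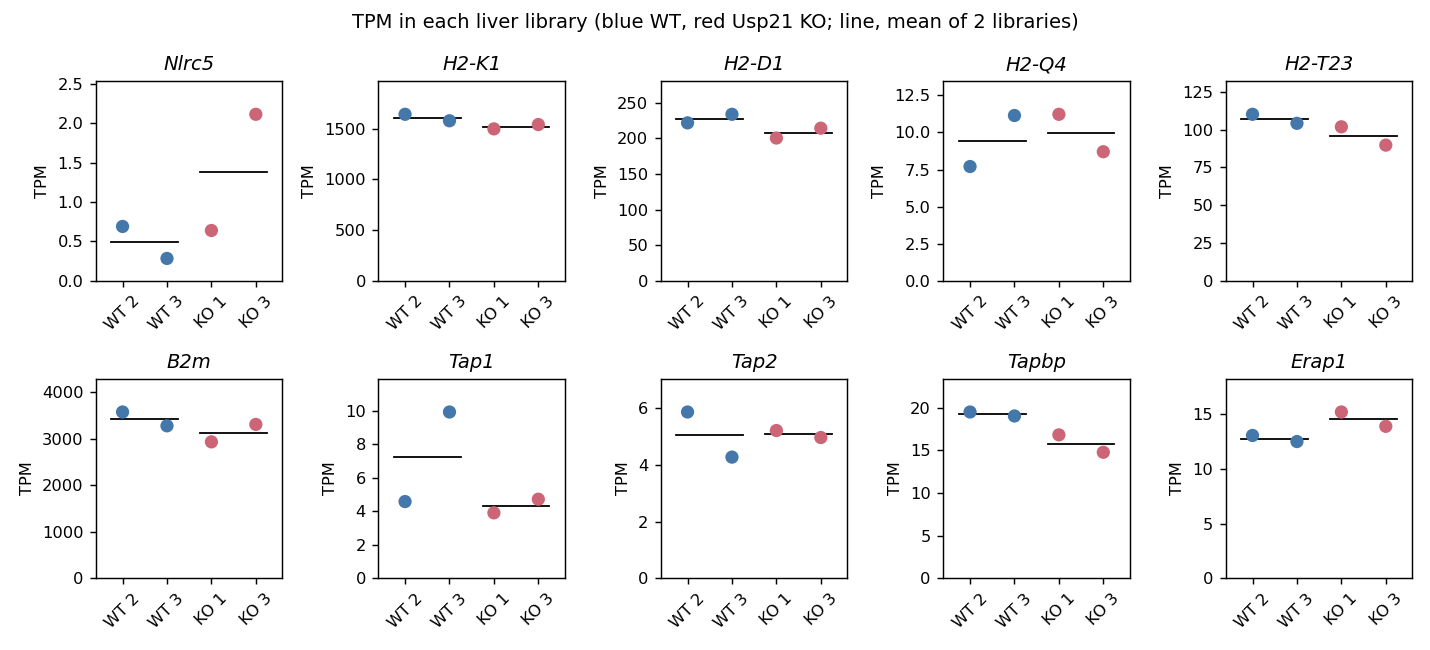
TPM (vertical axis, linear and starting at 0) of the 10 genes in each liver library, with WT in blue, *Usp21* KO in red and a line at the mean of the 2 libraries. *Nlrc5* is highest in KO replicate 3 at 2.12 TPM with the other 3 libraries at 0.689 TPM or less, while *Tap1* is highest in WT replicate 3 at 9.92 TPM.

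*Nlrc5* was at 0.689 and 0.282 TPM in the WT livers, against 0.638 and 2.12 TPM in the KO livers. KO replicate 3 was above both WT libraries, but KO replicate 1 lay between them, so the genotypes overlapped. The means were 0.486 ± 0.288 TPM in WT and 1.38 ± 1.05 TPM in KO (SD, n = 2 libraries each), a ratio of 2.83. The log2 fold change was 0.62 (SE 0.37, 95% interval -0.34 to 1.58, adjusted p = 0.695 in limma with Benjamini-Hochberg adjustment). The 2 KO libraries differed from each other 3.32-fold. Without KO replicate 3 the log2 fold change was 0.15, and without KO replicate 1 it was 1.08 with an adjusted p of 0.661 in limma (Benjamini-Hochberg). The size of the value thus depended on which KO library was kept. Of 2055 genes with a mean of 0.5 to 1.5 TPM, 10.5% had a difference between the KO libraries at least as large as that of *Nlrc5*, and 15.9% had a log2 fold change at least as far from 0. It shared no 31-base stretch of transcript with another expressed gene.

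*H2-K1* and *H2-D1* encode the classical class I heavy chains K and D, which present peptides to CD8+ T cells. *H2-K1* was at 1644 and 1580 TPM in the WT livers, against 1500 and 1543 TPM in the KO livers. The KO values were the lower ones, with a change of the mean of -5.64% and a log2 fold change of -0.08 (SE 0.18, adjusted p = 0.874 in limma with Benjamini-Hochberg adjustment). This was -0.22 with upper quartile scaling and -0.29 with median centring, both of which lower KO relative to WT. *H2-D1* was at 222 and 234 TPM in the WT livers, against 201 and 214 TPM in the KO livers. Its KO libraries were again the lower ones, with a log2 fold change of -0.14 (SE 0.16, adjusted p = 0.759, limma with Benjamini-Hochberg adjustment), and -0.27 and -0.34 under these scalings.

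*H2-T23* encodes Qa-1, a nonclassical heavy chain recognised by NK cell receptors of the CD94/NKG2 type. It was at 110 and 104 TPM in the WT livers, against 102 and 89.7 TPM in the KO livers, with a log2 fold change of -0.16 (SE 0.17, adjusted p = 0.719, limma with Benjamini-Hochberg adjustment). The genotypes did not overlap, although WT replicate 3 and KO replicate 1 were close, and the log2 fold change was -0.30 with upper quartile scaling and -0.37 with median centring. *H2-Q4* encodes a nonclassical heavy chain of the Q region and was expressed far lower, at 7.70 and 11.1 TPM in the WT livers, against 11.2 and 8.70 TPM in the KO livers. Each genotype had 1 high and 1 low library, and the log2 fold change of 0.08 (SE 0.26) turned to -0.04 with upper quartile scaling and to -0.12 with median centring.

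*B2m* encodes the light chain that all class I heavy chains share, and it was the most abundant of the 10 genes. Its levels were 3571 and 3274 TPM in the WT livers, against 2930 and 3304 TPM in the KO livers. Only KO replicate 1 was below the range of WT, and KO replicate 3 lay within it. The log2 fold change was -0.14 (SE 0.21, adjusted p = 0.820 in limma with Benjamini-Hochberg adjustment), and -0.27 and -0.34 under these scalings. For *H2-K1*, *H2-D1*, *H2-T23* and *B2m* together, the 95% intervals reached from 0.635-fold to 1.30-fold of WT on the unscaled TPM. With median centring the same 4 genes were at -0.29, -0.34, -0.37 and -0.34, and their intervals reached down to 0.555-fold, for *B2m*.

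Transcripts of the heavy chain genes are alike, and salmon divides reads among them. Of the 31-base stretches of *H2-K1*, 22.6% were also in another expressed gene, with 11.1% in *H2-D1*. The share was 24.5% for *H2-D1*, 35.9% for *H2-Q4* (19.5% in *H2-Q6*) and 14.6% for *H2-T23*, so the split between these genes is less certain than their sum. The sum over 15 heavy chain genes was 3171 and 3347 TPM in the WT livers, against 3179 and 3004 TPM in the KO livers. The genotypes overlapped in it, with a log2 fold change of -0.08 (SE 0.20, adjusted p = 0.898 in limma with Benjamini-Hochberg adjustment). *H2-K1* held 51.9% and 47.2% of this sum in WT and 47.2% and 51.4% in KO. *H2-Q10*, a secreted heavy chain made by liver, came next with 34.7% and 38.7% in WT and 40.6% and 35.2% in KO. *B2m* mRNA per heavy chain mRNA was 1.13 and 0.978 in WT and 0.921 and 1.10 in KO, so each genotype had a library on either side of 1.

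*Tap1* and *Tap2* encode the subunits of the peptide transporter, and both were expressed at a few TPM. *Tap1* was at 4.58 and 9.92 TPM in the WT livers, against 3.91 and 4.72 TPM in the KO livers. WT replicate 3 was more than 2-fold above the other 3 libraries, which lay close together. The log2 fold change was -0.56 (SE 0.37, adjusted p = 0.585 in limma with Benjamini-Hochberg adjustment). Leaving out WT replicate 3 gave -0.07, and leaving out WT replicate 2 gave -1.04. *Tap2* was at 5.87 and 4.28 TPM in the WT livers, against 5.22 and 4.97 TPM in the KO livers, and the KO values fell inside the range of WT. Its log2 fold change was 0.02 (SE 0.25), and -0.10 with upper quartile scaling and -0.19 with median centring. *Tap1* transcripts per *Tap2* transcript numbered 0.780, 0.749 and 0.950 in WT replicate 2, KO replicate 1 and KO replicate 3, and 2.32 in WT replicate 3.

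WT replicate 3 was also the highest library for several other genes that interferon-gamma induces. *Irf1*, a transcription factor of the interferon response, was at 9.11 and 18.4 TPM in the WT livers, against 11.5 and 6.19 TPM in the KO livers. *Cxcl10*, a chemokine that draws T cells, was at 2.11 and 10.03 TPM in the WT livers, against 2.15 and 1.12 TPM in the KO livers. *S100a8*, a gene of neutrophils and monocytes, was at 2.26 and 29.1 TPM in the WT livers, against 1.12 and 0.738 TPM in the KO livers. The summed dendritic cell and monocyte markers, which include *S100a8*, came to 35.8 and 85.2 TPM in the WT livers, against 30.4 and 61.3 TPM in the KO livers, with *Flt3* at 0 in every library. Without *S100a8* the other 7 came to 33.5 and 56.1 TPM in the WT livers, against 29.3 and 60.5 TPM in the KO livers, so that WT replicate 3 was the highest through *S100a8* alone. *S100a8* had a log2 fold change of -2.37, and *Lyz2*, the other tested marker, one of -0.08. The part of these in the level of *Tap1* was not tested. In this same library *Nlrc5* had its lowest value. In RNA from whole tissue, fewer cells of a type and less RNA per cell cannot be told apart.

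*Tapbp*, which encodes tapasin, was at 19.5 and 19.0 TPM in the WT livers, against 16.8 and 14.8 TPM in the KO livers. The KO libraries were below the WT libraries by more than the spread within either genotype, and the mean change of -18.0% was the largest percentage among the 5 genes whose genotypes did not overlap. The log2 fold change was -0.27 (SE 0.19, 95% interval -0.74 to 0.19, adjusted p = 0.599 in limma with Benjamini-Hochberg adjustment). It was -0.40 with upper quartile scaling and -0.48 with median centring. *Erap1*, the peptide-trimming aminopeptidase, was at 13.1 and 12.5 TPM in the WT livers, against 15.2 and 13.9 TPM in the KO livers. It was the only one of the 10 genes for which each KO value exceeded each WT value. The log2 fold change was 0.17 (SE 0.19, adjusted p = 0.739 in limma with Benjamini-Hochberg adjustment), near the median of all tested genes, and -0.03 with median centring.

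Across all tested genes the median log2 fold change was 0.15, and it was 0.04 with upper quartile scaling and -0.05 with median centring of the libraries. The class I genes are therefore also given relative to that median. Whether the shift comes from the scaling or from the livers was not tested. The median of the 9 tested class I genes was -0.14, which is -0.29 relative to all tested genes. KO means were higher for 4 of the 10 genes (*Nlrc5*, *H2-Q4*, *Tap2* and *Erap1*), compared with 66.7% of all tested genes, and for 2 with upper quartile scaling (54.0% of all tested genes) and 1 with median centring (44.2%). Each KO value exceeded each WT value for 1 gene (*Erap1*), compared with 34.4% of tested genes. Each KO value was under each WT value for 4 genes (*H2-K1*, *H2-D1*, *H2-T23* and *Tapbp*), compared with 10.9% of tested genes. With upper quartile scaling, 1 gene was on the higher side (24.5% of tested genes) and 6 on the lower (18.6%), and with median centring 0 (17.5%) and 6 (26.1%), *B2m* and *Tap1* being the genes added on the lower side. The first 4 lie within 2.12 Mb of chromosome 17, and the heavy chains among them share sequence. Whether their levels depend on each other was not tested, so the 4 are not taken as independent.

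**Figure D2:**
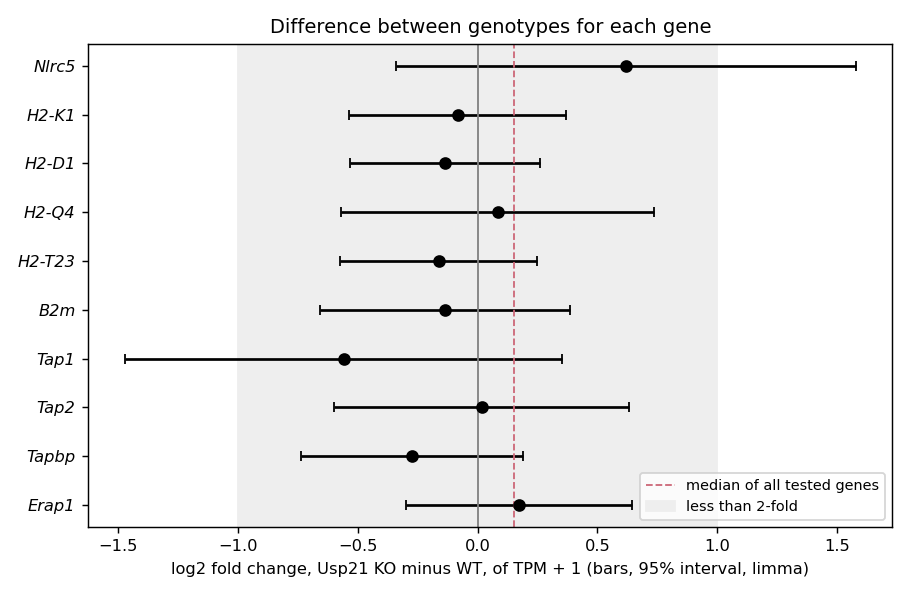
Log2 fold change of TPM + 1 (KO minus WT, horizontal axis) with its 95% interval from limma for the 10 genes, on a ground that is grey below a 2-fold difference, with a dashed line at the median of all tested genes (0.15). The interval of each gene includes 0, and those of *Nlrc5* and *Tap1* are the widest.

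To see whether the pathway genes followed *Nlrc5* from library to library, the log2(TPM + 1) of each gene was centred on its own mean. *Nlrc5* was lowest in WT replicate 3, followed by KO replicate 1, WT replicate 2 and KO replicate 3. Of the 9 other genes, 0 were highest in KO replicate 3, the library with the most *Nlrc5*, whereas 21.6% of all tested genes were. None of the 9 had the same order of libraries, but only 3.00% of tested genes did, so 0 of 9 says nothing about these genes. The order itself is loose, with *Nlrc5* at 0.638 TPM in KO replicate 1 and 0.689 TPM in WT replicate 2. A WT library was the highest for 7 of the 9. *H2-K1*, *H2-D1*, *B2m* and *Tap1* were higher in KO replicate 3 than in KO replicate 1. For each of these the difference was small beside that of *Nlrc5*, whose log2(TPM + 1) differed by 0.93. The shares of all tested genes with these 2 traits were not counted, so both are descriptions and do not tell whether the genes followed *Nlrc5*.

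The distance between 2 centred profiles (Euclidean, over 4 libraries) was used as the measure of likeness. It is not scaled for how much a gene varies, so for a nearly flat gene it mostly reflects the spread of *Nlrc5* itself. The distances of such genes therefore do not tell whether they followed *Nlrc5*. *Erap1* and *Tap2* were nearest to *Nlrc5* among the 9 genes, at 0.898 and 0.921, and 30.3% and 33.5% of all tested genes were nearer still. *Tap1* was the farthest at 1.60, with 92.3% of tested genes nearer. The other 6 lay between 0.944 and 1.21, on either side of the median of all tested genes (1.03). The 5 tested genes nearest to *Nlrc5* were *Golga1* (0.0692), *Paqr3* (0.0842), *Rab30* (0.0865), *Cox15* (0.101) and *Bcas3* (0.103). *Golga1*, for example, was at 1.93 and 1.29 TPM in the WT livers, against 1.90 and 4.77 TPM in the KO livers, with the same single high library. With 4 libraries such a profile is a description only, and no correlation was computed.

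**Figure D3:**
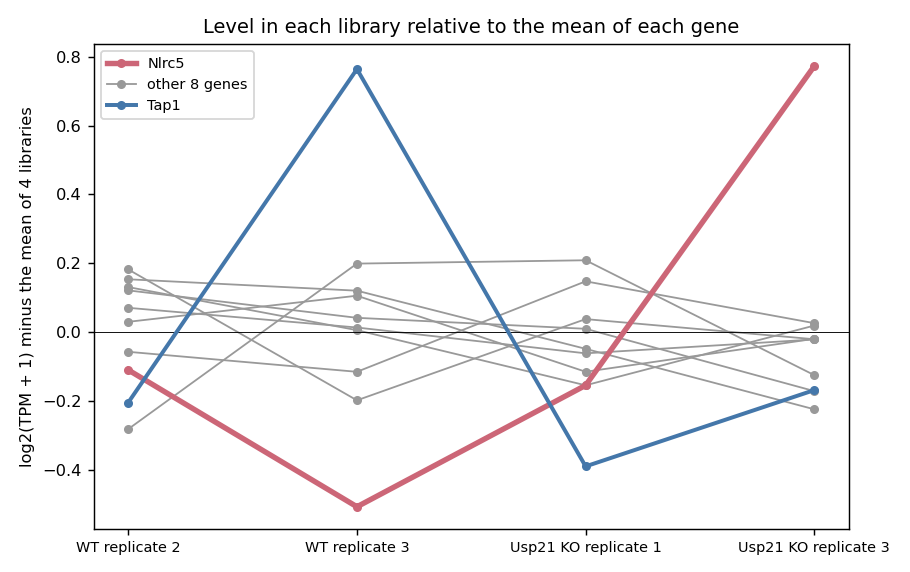
Centred log2(TPM + 1) (vertical axis) in each library for *Nlrc5* (red), *Tap1* (blue) and the other 8 genes (grey). *Nlrc5* peaks in KO replicate 3 and is lowest in WT replicate 3, *Tap1* peaks in WT replicate 3, and the grey lines stay close to 0 in all 4 libraries.

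The motif pair of the class I promoters was also looked up over all genes. It was present in 132 genes, of which 73 were tested, including *H2-K1*, *H2-D1* and *B2m*. The class I heavy chain gene *H2-Q7* and the class II gene *H2-Aa* were also among them, with log2 fold changes of -0.07 and -0.03. KO means were higher for 50 of the 73, and the median log2 fold change was 0.25, beside 66.7% and 0.15 over all tested genes. Of these 73 genes, 0 had an adjusted p under 0.05 in limma with Benjamini-Hochberg adjustment, and 10 had an unadjusted p under 0.05, beside 0.0835% and 10.5% of all tested genes. *H2-K1*, *H2-D1* and *B2m*, with log2 fold changes of -0.08, -0.14 and -0.14, were on the lower side of this group. This group was formed after values had been seen and is given as a description.

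Other genes of the pathway were described from 9 lists, gene by gene. None of their tested genes had an adjusted p under 0.05 in limma (0 genes, Benjamini-Hochberg adjustment), and 3 had an unadjusted p under 0.05, of which 1 (*Creb1*) was higher and 2 (*Psmb10* and *Igtp*) lower in KO. These are 3 of 70 genes, or 4.29%, beside 10.5% of all tested genes. With upper quartile scaling the counts were 1 higher and 6 lower, beside 9.17% of all tested genes, and with median centring 0 higher and 13 lower (18.6% of the 70), beside 9.39%. The counts of higher genes given for each list stand beside 66.7% of all tested genes, 54.0% with upper quartile scaling and 44.2% with median centring.

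Of the other class I heavy chains, 6 were tested and 5 had a lower mean in KO, and the median of the list was -0.17. *H2-Q6* was lowest at -0.57, with 6.30 and 12.5 TPM in the WT livers, against 6.62 and 4.87 TPM in the KO livers, and *H2-Q1* highest at 0.62, where 1 KO library at 3.45 TPM stood above the other 3. *H2-T22* was at 48.4 and 68.1 TPM in the WT livers, against 37.6 and 47.0 TPM in the KO livers. The class I-like molecules, which fold like heavy chains but mostly serve other tasks, had 3 of 5 higher with a median of 0.13, from *Mr1* (-0.40), which presents vitamin B metabolites, to *Fcgrt* (0.18), the neonatal Fc receptor. With median centring 0 of these 5 were higher.

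The immunoproteasome list holds the subunits and activators that interferon-gamma induces for peptide production, and all 5 of its tested genes had a lower mean in KO under each scaling (0 of 5 higher). *Psmb10* was at 31.9 and 38.5 TPM in the WT livers, against 21.5 and 20.8 TPM in the KO livers. The genotypes were well apart, with a log2 fold change of -0.70 (SE 0.19, unadjusted p = 0.0102, adjusted p = 0.464 in limma with Benjamini-Hochberg adjustment). *Psmb9*, whose gene overlaps *Tap1* on the opposite strand, was at 11.3 and 14.1 TPM in the WT livers, against 8.68 and 9.90 TPM in the KO livers. *Psme2* was nearest to 0 at -0.03. The median of the list was -0.24, or -0.39 relative to all tested genes.

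The peptide-loading chaperones and peptidases were on the other side. Of 7 tested genes, 6 had a higher mean in KO (5 with upper quartile scaling and 4 with median centring), and for 4 of them the genotypes did not overlap, beside 66.7% and 34.4% of all tested genes. The median was 0.38, or 0.23 relative to all tested genes. *Lnpep*, a trimming peptidase of endosomes, was highest at 0.65, and *Tapbpl*, a peptide editor related to tapasin, lowest at -0.04. *Hspa5*, the general chaperone BiP of the endoplasmic reticulum, was at 260 and 256 TPM in the WT livers, against 274 and 478 TPM in the KO livers, so that KO replicate 3 stood out in it as in *Nlrc5*. *Canx*, the chaperone calnexin, was also highest in KO replicate 3, with 93.7 and 95.6 TPM in the WT livers, against 105 and 154 TPM in the KO livers.

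The factors that recruit NLRC5 to the SXY module were expressed in all 4 libraries. Of 8 tested genes 6 had a higher mean in KO (5 under either other scaling), and the median was 0.26. *Creb1* was at 0.681 and 1.12 TPM in the WT livers, against 2.59 and 2.12 TPM in the KO livers, with a log2 fold change of 0.83 (unadjusted p = 0.0265 in limma) and no overlap. *Rfxank*, a subunit of RFX, was lowest at -0.28.

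Upstream of *Nlrc5*, the 13 tested interferon signalling genes had a median of 0.05, with 7 of 13 higher in KO (6 under either other scaling). *Stat2* was highest at 1.06, with 2.44 and 3.43 TPM in the WT livers, against 11.2 and 4.43 TPM in the KO livers, where KO replicate 1 was the high library and not KO replicate 3. *Irf1* was lowest at -0.56. Of 16 tested interferon-induced genes, 4 were higher in KO (3 under either other scaling), with a median of -0.18 or -0.33 relative to all tested genes. *Igtp*, a GTPase induced by interferon-gamma, was at 14.9 and 27.4 TPM in the WT livers, against 8.91 and 11.4 TPM in the KO livers, with a log2 fold change of -0.94 (unadjusted p = 0.0290 in limma). *Cxcl10* was lowest at -1.18, with overlapping genotypes, and *Oasl2* highest at 0.34.

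MHC class II genes, which the related protein CIITA controls through the same module, had a median of -0.04 over 6 tested genes, 1 of them higher in KO. *H2-Eb1* was lowest at -0.52 and *H2-DMb1* highest at 0.26. In the NLR family, the relatives of NLRC5, 4 genes were tested and 2 were higher, from *Nod1* at -0.51 to *Nlrp12* at 0.41.

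**Figure D4:**
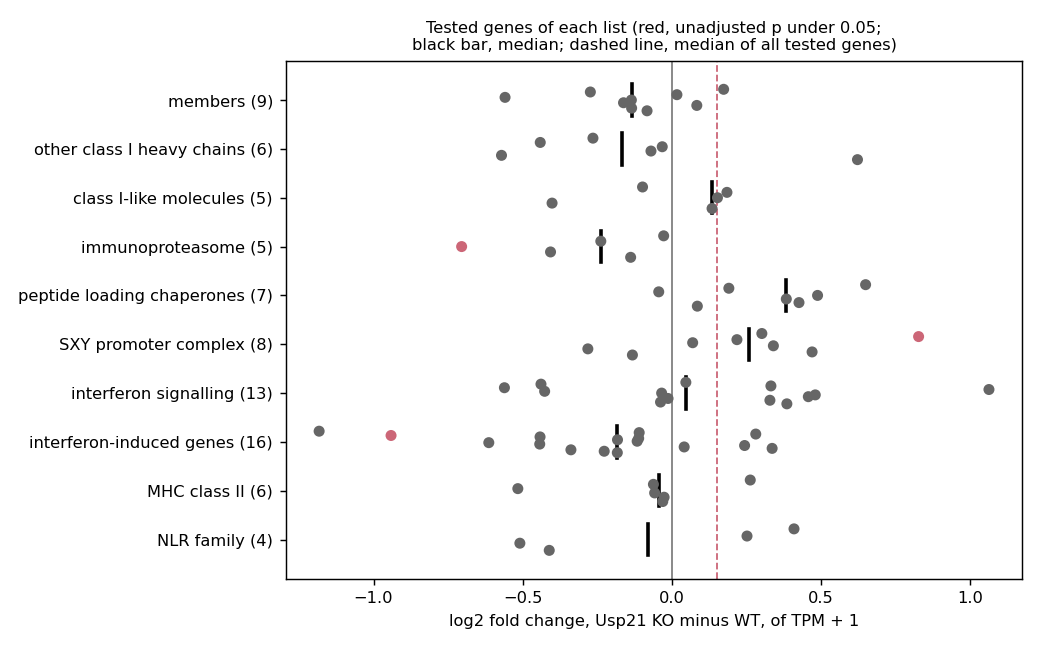
Log2 fold change of TPM + 1 (KO minus WT, horizontal axis) of each tested gene in the 9 class I genes (members) and the 9 other lists, with the number tested in brackets, a black bar at the median and a dashed line at the median of all tested genes (0.15). The 3 red points are *Psmb10*, *Creb1* and *Igtp*, with an unadjusted p under 0.05 in limma, and the medians of the immunoproteasome (-0.24) and interferon-induced genes (-0.18) lie left of 0.

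Class I genes are expressed more strongly in immune and endothelial cells than in hepatocytes, so marker levels are given beside them. The summed Kupffer cell markers came to 145 and 166 TPM in the WT livers, against 78.3 and 203 TPM in the KO livers, from *Cd5l* at a log2 fold change of -0.70 to *Marco* at 0.42. Sinusoidal endothelial markers came to 68.4 and 53.6 TPM in the WT livers, against 61.8 and 79.9 TPM in the KO livers, with all 8 tested genes higher in KO (7 with upper quartile scaling, 4 with median centring), from *Clec4g* at 0.07 to *Lyve1* at 0.98 (unadjusted p = 0.0444 in limma). Both sums were highest in KO replicate 3, the library with the most *Nlrc5*. Of the Kupffer markers, *Csf1r* was instead highest in WT replicate 3. Among the endothelial markers *Clec4g* (36.8 of the 79.9 TPM), *Kdr*, *Pecam1* and *Oit3* were highest in KO replicate 3. *Stab1*, *Stab2* and *Lyve1* were highest in KO replicate 1 and *Fcgr2b* in WT replicate 2. Stellate cell markers came to 55.0 and 45.9 TPM in the WT livers, against 84.7 and 63.8 TPM in the KO livers, from *Des* at 0.0014 to *Col3a1* at 0.86. Cholangiocyte markers came to 14.6 and 15.9 TPM in the WT livers, against 37.9 and 24.5 TPM in the KO livers, with *Sox9* at 0.52 and *Spp1* at 0.97 (unadjusted p = 0.0120 in limma). Hepatocyte markers came to 71408 and 56526 TPM in the WT livers, against 60113 and 48684 TPM in the KO livers, from *Alb* at -0.35 to *Hnf4a* at 0.59 (unadjusted p = 0.0123 in limma). The part of these markers in the levels of *Nlrc5* and the class I genes was not tested.

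A second table, of reads counted per gene with HTSeq, listed 5 of the 10 genes at 0 in every library, namely *Nlrc5*, *H2-K1*, *H2-T23*, *B2m* and *Tap2*. Of 686 genes that reached 100 TPM in every library, 428 were also at 0 there, so a 0 in that table says nothing of expression. *Erap1*, which lies on the strand opposite to the overlapping gene *Cast*, had 30 and 27 recovered reads in WT and 55 and 34 in KO. Its log2 fold change there was 0.52 (adjusted p = 0.821 in edgeR's quasi-likelihood test with Benjamini-Hochberg adjustment). The strand setting of the counting is not given, so reads of *Erap1* and of *Cast* cannot be told apart here. The value is therefore not set against the TPM values of *Erap1*. Of the 10 genes, the other 4 with any read had at most 8 reads in a library.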

How the data were processed

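RNA from the livers of 2 WT and 2 *Usp21* KO mice was sequenced, and libraries were grouped by their labels and matched to table columns by name. The authors estimated abundance with salmon against a mouse transcriptome of build mm10 and deposited it as TPM per Ensembl gene. The authors also deposited a signal of reads counted per gene with HTSeq and scaled by TMM to CPM. Whole reads could be recovered from that signal (100% of values whole within 0.02 reads), with 102898 to 148164 reads per library. TPM keeps no read depth. Versions, annotation and the strand setting are not given in the sources used here. Tables of the same values on a log scale were not used.

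Genes whose mean reached 1 TPM were tested two-sided on log2(TPM + 1) with limma 3.58.1 (lmFit, eBayes with trend) and Benjamini-Hochberg adjustment over all 9581 genes. The prior degrees of freedom were 3.62, so the tests draw strongly on the variances of other genes. The p-values measure the spread between single mice. Alternative settings were a pseudocount of 0.1 or 5, a minimum of 0 or 5 TPM, upper quartile scaling, median centring, eBayes without the trend, no moderation, each library left out, the CPM values with limma, and edgeR 4.0.16 and DESeq2 1.42.0 on the recovered reads (5146 genes). The genes and lists were chosen with earlier results of these data known. From each list, the genes with the highest and lowest log2 fold change and any with an unadjusted p under 0.05 are named. Further genes were named after their values were seen (*S100a8*, *H2-T22*, *H2-Q10*, *H2-Q7*, *H2-Aa*, *Psmb9*, *Hspa5*, *Canx*, *Csf1r*, *Stab1*, *Stab2*, *Kdr*, *Pecam1*, *Oit3* and *Fcgr2b*). Scripts were tested on simulated data.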

Additional observations from a re-analysis of the deposited data

How the results depend on the processing

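Past the adjusted threshold there were 0 of the 10 genes under each TPM alternative with limma, and 0 of the 5 genes with any read on the CPM (limma) and the recovered reads (edgeR and DESeq2). On the TPM, unadjusted limma values under 0.05 were 0.0318 for *Nlrc5* without KO replicate 1, 0.0257 for *Tap1* (-1.04) without WT replicate 2 and 0.0339 for *Tapbp* with median centring, and the Benjamini-Hochberg adjusted values were 0.661, 0.780 and 0.511. The log2 fold change of *Nlrc5* kept its sign over the 12 TPM alternatives, from 0.15 without KO replicate 3 to 1.22 with a pseudocount of 0.1. With a library left out it ranged from 0.15 to 1.08.

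With upper quartile scaling, 2 of the 10 genes were higher in KO and 7 genes of the other lists had an unadjusted p under 0.05, and *H2-Q4* (-0.039) and *Tap2* (-0.10) turned. With median centring these counts were 1 and 13, and *H2-Q4* (-0.12), *Tap2* (-0.19) and *Erap1* (-0.030) turned. Both scalings lower KO relative to WT. Without the filter the count of list genes was 6, with edgeR 1 and with DESeq2 0. With a library left out, 2 to 4 genes were higher in KO (2 without KO replicate 1), 6 to 8 had genotypes that did not overlap, of which fewer libraries make more, and 1 to 6 list genes had an unadjusted p under 0.05 (1 without WT replicate 3, 6 without KO replicate 3). *H2-Q4* then ranged from -0.16 to 0.32 and *Tap2* from -0.17 to 0.21.

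On the CPM and the recovered reads, 3 of the 5 genes with any read had genotypes that did not overlap. *Tap1* was at 3.15 with limma, 3.13 with edgeR and 2.34 with DESeq2 from at most 1 read in a library, and *Tapbp* at 2.25, 0.80 and 0.65 from at most 8 reads. *H2-D1* was at -3.23 (limma, unadjusted p = 0.0312), -2.62 (edgeR) and -2.84 (DESeq2) from at most 4 reads in a library. *H2-Q4* was at -0.081 with edgeR and -0.074 with DESeq2. The small read numbers limit these values, and this counting listed 428 of 686 abundant genes at 0 in every library. A direction in it is therefore not set against the TPM values. No paired analysis was possible because neither the labels nor the study tell which mice came from the same litter. A replicate number is not said to mark a pair.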
